A study of Mus musculus with 37 samples.

Results

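The comparison set gastrocnemius muscle of mice lacking Nampt in skeletal muscle against that of wild-type mice at 2 weeks of age. It was chosen by genotype and age alone, and it holds 11 of the 37 libraries of the series, 5 from knockout animals (numbers 22, 28, 29, 30 and 31) and 6 from wild-type animals (numbers 21, 23, 24, 25, 26 and 32). Total RNA was sequenced after removal of ribosomal RNA. Every library belonged to sequencing pool A or B, and pool and genotype were unevenly crossed. Knockout animals 22, 28, 29 and 30 were in pool A and animal 31 in pool B. Wild-type animals 21 and 23 were in pool A and the other 4 in pool B. The labels describe the knockout as specific to skeletal muscle. The driver of the deletion, the deleted exons, the strain and whether the groups were littermates are not given in the sources used here, and sex was not recorded at 2 weeks. Each library carries its own animal number, so the spread below is the spread between animals.

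NAD carries electrons in glycolysis, the tricarboxylic acid cycle and fatty acid oxidation, and it is the substrate of sirtuins and poly(ADP-ribose) polymerases. In muscle it is made mainly from nicotinamide, which NAMPT converts to nicotinamide mononucleotide in the rate-limiting step of this salvage route. NMNAT enzymes then form NAD. Nicotinamide riboside kinases, NAPRT and the pathway from tryptophan supply NAD or its precursors from other starting points.

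Total counts of the 11 libraries lay between 14404387 and 21888652. Nuclear ribosomal RNA genes took at most 0.519% of the counts of any of them, and mitochondrial genes took 3.76% to 5.90%. The muscle transcripts Acta1, Ckm and Myh4 were abundant in all 11, at 33185 to 41136, 10077 to 13023 and 37445 to 52848 counts scaled to library size (CPM) respectively. By the counts of Xist and Ddx3y, 2 wild-type and 2 knockout animals were female and 4 and 3 were male. The libraries of wild-type animal 25 and of knockout animals 28, 29 and 31 stood apart from the other 7 on the first principal component of log2 CPM, which held 32.2% of the variance. These 4 libraries carried more lymphocyte transcripts than the others, and the results that rest on them are given below with and without them. Fits without them keep only knockout animals 22 and 30, both of pool A. In those fits the loss of knockout animals and that of lymphocyte transcripts cannot be told apart.

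Nampt RNA was lower in every knockout animal than in any wild-type animal. Nampt (ENSMUSG00000020572, chromosome 12, 32819545 to 32853349 on the forward strand in GRCm38) was measured at 32.03, 34.4, 34.8, 31.3 and 32.9 CPM in knockout animals 22, 28, 29, 30 and 31. The wild-type animals ran from 50.2 to 75.0 CPM with a median of 65.5. The knockout mean was 33.1 ± 1.496 CPM (SD, n = 5), which is 50.8% of the wild-type mean of 65.1 ± 9.32 CPM (SD, n = 6). In the fit over all 37 libraries the log2 fold change was -0.96 (SE 0.11, edgeR adjusted p = 2.33e-06). A two-sided exact permutation test over the 11 libraries gave p = 0.00216, the smallest value that 462 splits allow. That test took no account of pool. The knockout animals varied little among themselves, and the wild-type animals of pool B were all above those of pool A. Within pool A the log2 fold change was -0.73 and within pool B -1.09, and neither passed on its own (edgeR adjusted p = 0.888 and 0.17). With libraries scaled to their totals alone it was -0.79 and did not pass (edgeR adjusted p = 0.715). The whole muscle was sequenced, so fewer Nampt-expressing cells and less Nampt RNA per cell cannot be told apart. The annotated gene Gdap10 overlaps Nampt on the same strand.

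**Figure D1:**
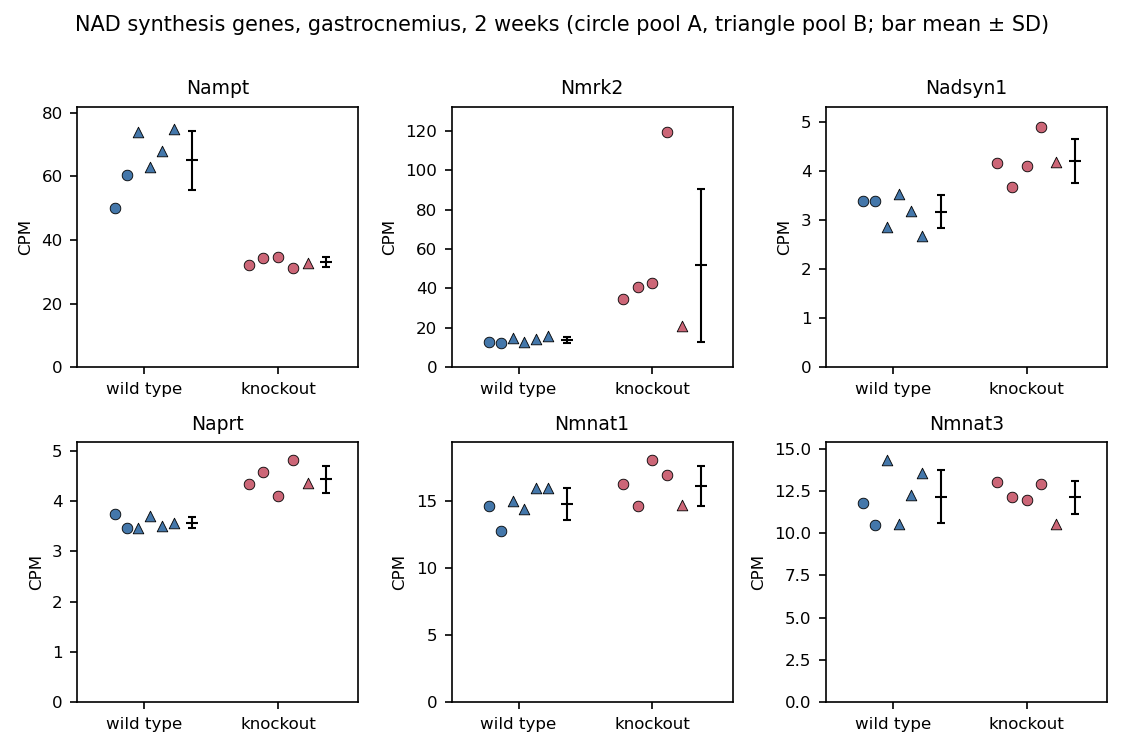
CPM of 6 NAD synthesis genes in each 2-week library, wild type (blue) and knockout (red), with circles for pool A, triangles for pool B, and bars for the mean ± SD. Nampt was lower in all 5 knockout animals, Nmrk2 ran from 20.8 to 119 CPM in knockout against 12.3 to 15.7 in wild type, and Nmnat1 and Nmnat3 overlapped between the groups.

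Nampt was the only member of the NAD synthesis list called in the all-age fit. Of 17 listed genes, 12 were tested, and 1 of them was called, against 0.0598% of all genes in that fit. The median log2 fold change of the list was 0.12, beside -0.02 over all genes. Nmrk2, the muscle-enriched nicotinamide riboside kinase, was at 34.7, 40.9, 42.8, 119 and 20.8 CPM in knockout animals 22, 28, 29, 30 and 31, and between 12.3 and 15.7 CPM in wild type with a median of 13.6. The groups did not overlap, but the knockout animals differed widely. The lowest was the only knockout animal of pool B, and animal 30 was far above the rest. The log2 fold change was 1.83 (SE 0.44), and it did not pass (edgeR adjusted p = 0.20, and 0.228 on the 2-week libraries alone). Nadsyn1, NAD synthetase, averaged 3.17 ± 0.335 CPM in wild type and 4.20 ± 0.440 in knockout, a log2 difference of 0.43 (edgeR adjusted p = 0.815). Naprt, which starts from nicotinic acid, averaged 3.57 ± 0.117 and 4.44 ± 0.269 CPM, a log2 difference of 0.34 (edgeR adjusted p = 0.988). For both genes every knockout animal was above every wild-type animal, as was the case for 1.02% of all genes. In either direction the groups did not overlap for 3.47%. Of the enzymes that complete NAD, Nmnat1 (14.8 ± 1.20 and 16.1 ± 1.47 CPM) and Nmnat3 (12.2 ± 1.55 and 12.1 ± 0.999 CPM) overlapped between the groups. Nmrk1, Qprt, Afmid, Kmo and Haao also overlapped. Of 27 tested genes for NAD use, transport and nicotinamide clearance none was called in either fit.

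Few other genes differed in the fit over all ages, and many small differences were called when the 2-week libraries were fitted alone. The all-age fit tested 16728 genes and called 10 of them, 0.0598%, with 6 rises (0.0359%) and 4 falls (0.0239%). At an unadjusted p under 0.05 there were 812 genes, 4.85%. This fit uses 1 spread for all ages, and its common biological coefficient of variation was 0.189. The fit on the 11 libraries of 2 weeks, also with pool as covariate, had a coefficient of 0.0923 and called 177 of 15015 genes, 1.18%. Of these, 68 rose (0.453%) and 109 fell (0.726%), and 8 of the 10 genes of the all-age fit were among them. At an unadjusted p under 0.05 there were 2132 genes, 14.2%. The median size of the 177 changes was 0.42 log2 units, and 12 rises and 7 falls exceeded 2-fold. All 177 had the same sign in the all-age fit and in each pool taken alone, which the choice of these genes on the same libraries largely fixed. Libraries scaled to their totals alone gave 182 calls in the 2-week fit, with 130 rises and 52 falls, so the balance of rises and falls depended on the scaling. That scaling moved the median of all genes in the all-age fit from -0.02 to 0.13. The 177 kept their sign under it.

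The count of 177 rested on single libraries. It fell to 49 without wild-type animal 21 and to 51 without knockout animal 31, the only knockout library of pool B. It was 99, 102 and 108 without wild-type animals 24 and 23 and knockout animal 30. Without the 4 lymphocyte-rich libraries it was 72, of which 48 were among the 177, and only knockout animals 22 and 30 remained. Without the pool term it was 505 (3.36%), of which 169 were among the 177. In every one of these fits all 177 genes kept their sign, on libraries that had chosen them. The 10 calls of the all-age fit became 5 without wild-type animal 21. In the text below, log2 fold changes and adjusted p-values come from edgeR on the 2-week libraries alone unless the all-age fit is named. Counts of called list members stand beside the 0.453% of all genes that rose and the 0.726% that fell in that 2-week fit.

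Ryr3 and Chrna9, which encode a calcium release channel and an acetylcholine receptor subunit, rose in both fits. Ryr3, the ryanodine receptor isoform prominent in immature muscle, was at 33.1, 28.4, 36.045, 26.9 and 40.3 CPM in knockout animals 22, 28, 29, 30 and 31. Wild-type animals ran from 12.5 to 16.3 CPM with a median of 15.3. Every knockout animal was above every wild-type animal. The means were 33.0 ± 5.49 and 14.8 ± 1.42 CPM, a log2 fold change of 1.30 (SE 0.25, edgeR adjusted p = 0.0214) in the all-age fit and 1.27 (SE 0.09, edgeR adjusted p = 1.49e-06) at 2 weeks alone. Chrna9, the nicotinic receptor alpha 9 subunit, was at 4.27, 5.88, 3.70, 4.32 and 4.03 CPM in the same order of knockout animals. It ran from 1.09 to 1.76 CPM in wild type, with a median of 1.46, so these groups did not overlap either. The log2 fold change was 1.65 in both fits (SE 0.28 and 0.18, edgeR adjusted p = 0.00435 and 3.32e-05). In the all-age fit Ryr3 lost its call in 8 of the 11 fits that left out 1 library and with totals alone (edgeR adjusted p = 0.0924). Without the lymphocyte-rich libraries neither gene was called in that fit (edgeR adjusted p = 1 and 0.282), and both were in the 2-week fit (0.000241 and 0.00111). Ryr3 overlaps the protein-coding gene Aven on the other strand, and Chrna9 overlaps the annotated genes 4930480C01Rik and Gm43771 on its own strand. The strand setting of the counting is not given in the sources used here, so whether reads of Aven were counted for Ryr3 is not known. No strand setting would separate Chrna9 from partners on its own strand. Overlap was taken over whole gene spans, and exons were not compared.

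Acsl4, Rps6ka6 and Vtcn1 fell in the all-age fit. Acsl4, an acyl-CoA synthetase that prefers arachidonate, was at 39.2, 35.4, 39.9, 31.1 and 42.2 CPM in knockout animals 22, 28, 29, 30 and 31, below the wild-type range of 50.9 to 62.9 CPM (median 59.3). Its log2 fold change was -0.59 (SE 0.11, edgeR adjusted p = 0.0115, all-age fit). Rps6ka6, which encodes the ribosomal S6 kinase RSK4, was at 1.10, 1.23, 1.31, 0.902 and 1.19 CPM in knockout. It was between 3.03 and 3.48 CPM in wild type with a median of 3.25, and no animal of one group reached the other. The log2 fold change was -1.57 (SE 0.31, edgeR adjusted p = 0.0214, all-age fit) and -1.45 (SE 0.16, edgeR adjusted p = 3.13e-05) at 2 weeks alone. Vtcn1, an immune checkpoint ligand of the B7 family, was near the limit of counting, with 62 counts over the 6 wild-type and 8 over the 5 knockout libraries. Scaled to depth, wild type was 7.80 times knockout (exact 95% interval 3.72 to 18.9, counting error only), with an edgeR adjusted p of 0.00744 in the all-age fit. It was too low for the filter of the 2-week fit. Without the lymphocyte-rich libraries Acsl4 and Rps6ka6 lost the call of the all-age fit (edgeR adjusted p = 0.458 and 0.779) and kept that of the 2-week fit (0.0103 and 0.00201), and Vtcn1 was too low to be tested in the all-age fit. In the all-age fit Rps6ka6 lost its call in 9 of the 11 fits that left out 1 library. Acsl4 lost it without wild-type animal 21 and without knockout animal 30 (edgeR adjusted p = 0.0928 and 0.0785), and Vtcn1 without wild-type animal 21 (0.0837). With totals alone Acsl4 and Rps6ka6 lost it too (edgeR adjusted p = 0.994 and 0.137).

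**Figure D2:**
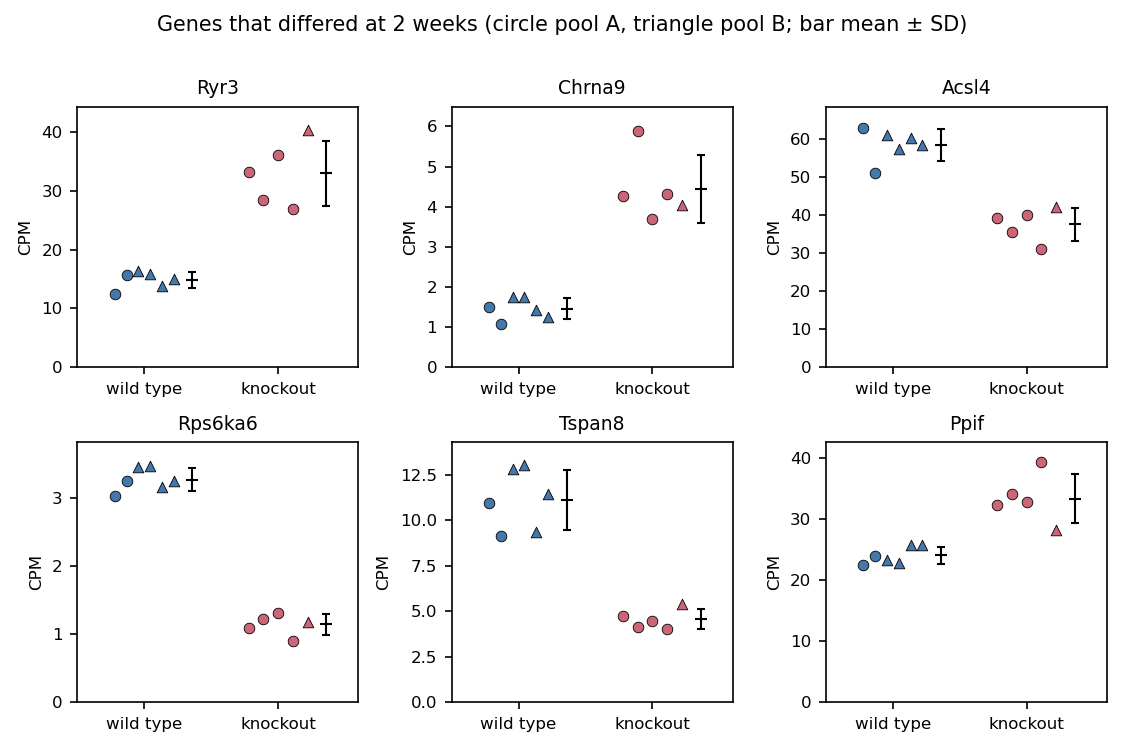
CPM of 6 genes in each 2-week library, wild type (blue) and knockout (red), with circles for pool A, triangles for pool B, and bars for the mean ± SD. In all 6 panels no knockout animal overlapped a wild-type animal. Ryr3, Chrna9 and Ppif were higher and Acsl4, Rps6ka6 and Tspan8 lower in knockout.

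The other 4 rises of the all-age fit were predicted genes, whose fold differences were far larger than that of Nampt. Gm10800 (chromosome 2, 98666547 to 98667301) was at 32.03, 28.97, 31.7, 29.99 and 24.5 CPM in knockout animals 22, 28, 29, 30 and 31, and at 0.0440 to 0.352 CPM in wild type. It had 3781 counts over the knockout and 26 over the wild-type libraries, a ratio of 144.5 after scaling to depth (exact 95% interval 98.5 to 221.5, counting error only). Gm10801 (chromosome 2, 98662237 to 98664083) had 354 and 7 counts, Gm21738 (chromosome 14, 19415857 to 19418930) had 72 and 3, and Gm5083 (chromosome 13, 44121167 to 44125179) had 92 and 3. The ratios were 50.3 (24.1 to 125.9), 23.9 (7.84 to 118.4) and 30.5 (10.1 to 150.5). In the all-age fit the edgeR adjusted p was 0.00181 for Gm21738 and 0.0108 for Gm5083. No wild-type library of any age held more than 3 counts of Gm10801, Gm21738 or Gm5083. These 3 genes thus passed the count filter only through the knockout libraries, and their ratios and p-values are not independent of that. In the 2-week fit this also held for Gm10800, with at most 8 counts in a wild-type library. Without the lymphocyte-rich libraries Gm21738 lost that call (edgeR adjusted p = 0.109), and Gm5083 was too low to be tested. Gm5083 also lost it in 2 of the 11 fits that left out 1 library. In the 2-week fit Gm21738 was too low for the filter, and Gm5083 lost its call without the lymphocyte-rich libraries (edgeR adjusted p = 0.0598). Gm10800, Gm10801 and Gm21738 are annotated as protein-coding and Gm5083 as a long intergenic non-coding RNA. The first 3 share sequence with each other. A word of 38 bases, the read length, was searched over both strands of all annotated transcripts, because such words show which counts could be split between genes. Of the 580 words of Gm10800, 36.6% occurred in other genes, with 113 words shared with Gm10801 and 60 with Gm21738. None of the 1220 words of Gm5083 did. The first word below stands in Gm10800, Gm10801 and Gm21738 and the second in Gm10801 and Gm21738.

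Gm10800: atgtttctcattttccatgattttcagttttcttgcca

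Gm10801: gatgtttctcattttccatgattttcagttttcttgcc

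They are 1 stretch read from neighbouring start positions, given 5′ to 3′ on the transcript strand of GENCODE vM21. Their letters belong to the major satellite repeat of mouse pericentromeric heterochromatin, and these words occur in 11 and 10 annotated genes. The sequence of such a word alone does not assign a read to 1 gene. Most words of Gm10800, Gm10801 and Gm21738 occurred in no other annotated gene. Neither the reads nor the genome outside annotated transcripts were searched, so how many counts of these 3 genes are affected is not known. The same 3 genes were also above every wild-type library of the same age in each knockout library of the later ages. Gm21738 was near the limit of counting there, with 4 to 12 counts in the 8-week knockout libraries. Gm10800 was at 19.4 to 117.7 CPM in 4-week, 38.6 to 128.2 in 6-week and 11.5 to 47.9 in 8-week knockout animals. In wild type it reached at most 2.27 CPM at any age. Gm5083 had few counts at later ages, and its effect did not pass the test of a difference between 4 and 2 weeks or between 8 and 2 weeks (edgeR adjusted p = 0.919 and 0.885). It had 92 counts in the 5 knockout libraries of 2 weeks, and 10, 10 and 3 counts over the knockout libraries of 4, 6 and 8 weeks.

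The 12 largest rises of the 2-week fit included Dusp26, Ppp1r1a, Mpp3 and several channel subunits. Dusp26, a dual-specificity phosphatase, was at 25.7, 19.2, 24.2, 29.2 and 20.4 CPM in knockout animals 22, 28, 29, 30 and 31 and at 9.74 to 12.5 CPM in wild type (median 10.8). Its log2 fold change was 1.03 (SE 0.11, edgeR adjusted p = 4.69e-05), and in the all-age fit it was 1.04 with an edgeR adjusted p of 0.30. Ppp1r1a, an inhibitor of protein phosphatase 1, averaged 18.8 ± 2.30 CPM in wild type and 33.5 ± 5.93 in knockout, a log2 fold change of 0.75. Mpp3, a membrane-associated scaffold, averaged 23.7 ± 2.54 and 38.95 ± 2.46 CPM, a log2 fold change of 0.72 (edgeR adjusted p = 2.95e-05). Among the channel subunits, which were grouped after their values were seen, those that rose were Cacna2d4, an auxiliary calcium channel subunit (0.85), Kcng4, a modifier subunit of potassium channels (0.60), and Gabrr2, a GABA receptor subunit (0.80), while the potassium channel genes Kcnq5 (-0.53) and Kcnj3 (-1.27) fell. Kl, the FGF23 co-receptor klotho, rose by 0.73 with knockout animal 31 highest at 5.79 CPM, and its groups overlapped. Togaram2, Pitpnm3 and Plbd1 rose by 0.81, 0.81 and 0.63. Knockout and wild type did not overlap in 41 of the 68 rises, as for 1.02% of all genes in that direction. That count restates what the fit selected.

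The largest falls included Tspan8, Bche, Ddc and Tfrc. Tspan8, a tetraspanin, was at 4.73, 4.15, 4.49, 4.02 and 5.41 CPM in knockout animals 22, 28, 29, 30 and 31, below the wild-type range of 9.12 to 13.0 CPM (median 11.2). Its log2 fold change was -1.15 (SE 0.11, edgeR adjusted p = 5.95e-06). Bche, butyrylcholinesterase, was at 8.85, 8.77, 8.66, 6.39 and 9.01 CPM in knockout and at 11.3 to 15.1 CPM in wild type, a log2 fold change of -0.68 (edgeR adjusted p = 0.00297). Ddc, aromatic amino acid decarboxylase, fell by 0.75 log2 units. Tfrc, the transferrin receptor, averaged 646 ± 98.3 CPM in wild type and 410 ± 42.3 in knockout, a log2 fold change of -0.61 (edgeR adjusted p = 0.0253). Rnf128, an E3 ubiquitin ligase, fell by 0.73, and Hook1, a microtubule linker, by 0.71. Prr32, Plekhh1 and Krt222 fell by 1.21, 0.62 and 0.59. Cd28, a co-stimulatory receptor of T cells, fell by 0.87, from 11.6 ± 2.71 to 5.03 ± 1.63 CPM, and knockout animals with and without other lymphocyte transcripts were all below wild type. The groups did not overlap in 94 of the 109 falls, as for 2.45% of all genes in that direction.

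**Figure D3:**
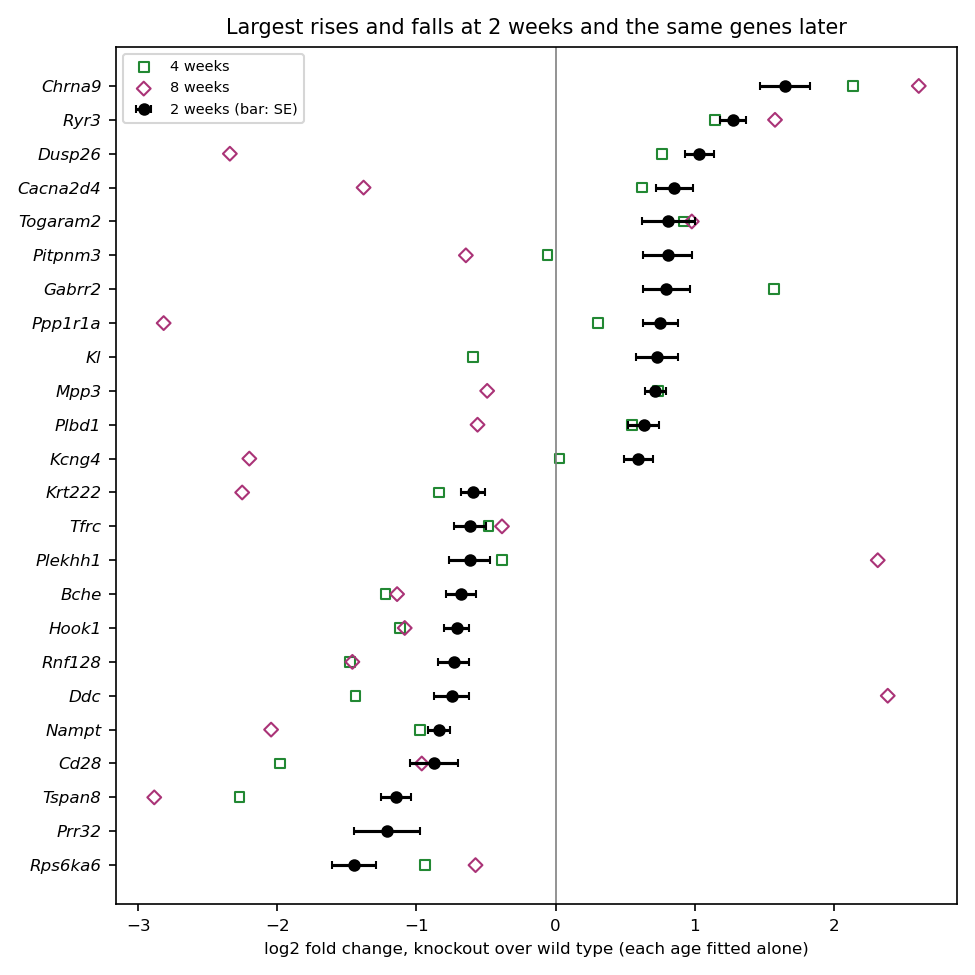
Log2 fold change of knockout over wild type for the 12 largest rises and 12 largest falls of the 2-week fit (black, bars for the SE), with the value of the same gene at 4 weeks (green squares) and 8 weeks (purple diamonds), each age fitted on its own libraries. A missing symbol means that the gene was too low to be tested at that age. Chrna9 and Ryr3 lay above 0 at all 3 ages, and Dusp26, Ppp1r1a and Kcng4 lay above 0 at 2 and 4 weeks and below it at 8 weeks.

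Among genes of energy metabolism, most members did not pass either fit. Of 36 complex I genes none was called, and their median log2 fold change was 0.08 in the all-age fit and 0.02 at 2 weeks alone. In the all-age fit 33 of the 36 were above 0. Of 33 nuclear genes of complexes III to V none was called (medians 0.10 and 0.03). None of 29 genes of pyruvate dehydrogenase and the tricarboxylic acid cycle was called (0.05 and -0.00), nor was any of the 8 tested messenger RNAs of mitochondrial DNA (-0.22 and -0.04). In these 3 lists 32 of 33, 24 of 29 and 1 of 8 genes were above 0 in the all-age fit. Over all genes the medians were -0.02 and -0.00. In the list for fatty acid uptake and oxidation, Acsl4 and Acsl6 fell among 34 members at 2 weeks alone, where 0.726% of all genes fell. Acsl6, another acyl-CoA synthetase, went from 20.05 ± 1.61 to 14.4 ± 1.74 CPM (log2 fold change -0.37, edgeR adjusted p = 0.0296). Of 22 glycolysis and glycogen genes only Phka1, a phosphorylase kinase subunit, was called, with a fall of 0.26. Outside these lists, and named after their values were seen, Oxct1, which activates ketone bodies, went from 108 ± 6.19 to 79.0 ± 4.43 CPM (log2 fold change -0.42, edgeR adjusted p = 0.00092). Gpd2, the mitochondrial glycerol-phosphate dehydrogenase, fell by 0.39, cytosolic Idh1 by 0.31 and malic enzyme Me1 by 0.43.

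Ppif encodes cyclophilin D, a regulator of the mitochondrial permeability transition pore. It was at 32.4, 34.04, 32.7, 39.3 and 28.1 CPM in knockout animals 22, 28, 29, 30 and 31 and at 22.6 to 25.8 CPM in wild type (median 23.7). No knockout animal reached down into the wild-type range, and the pool B animal was the lowest. The log2 fold change was 0.46 (SE 0.08, edgeR adjusted p = 0.00493) at 2 weeks alone and 0.48 in the all-age fit, where it missed the threshold (edgeR adjusted p = 0.0793). It was the only gene called among 30 for mitochondrial biogenesis, dynamics, calcium and the pore, whose median was 0.00 at 2 weeks alone. Ddit3, the stress-induced transcription factor CHOP, was the only one called among 28 genes of the integrated and mitochondrial stress response. It rose from 6.40 ± 0.284 to 8.47 ± 0.810 CPM (log2 fold change 0.40, edgeR adjusted p = 0.0377), and the list's median was -0.02. None of 22 genes of oxidative stress and metallothioneins and none of 19 p53 targets was called in either fit.

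Genes of the contractile apparatus and of muscle development changed individually. Of 19 genes of embryonic and perinatal muscle only Ryr3 was called, and the list's median was 0.12 in the all-age fit and 0.03 at 2 weeks alone. Myh8, the perinatal myosin, was 0.39 log2 units apart (edgeR adjusted p = 0.988, all-age fit). Of 21 genes of adult fast fibre, Mybpc2 and Ampd1 fell at 2 weeks alone, where 0.726% of all genes fell. Mybpc2, fast myosin-binding protein C, was at 4052, 4366, 3904, 4205 and 4060.5 CPM in knockout animals 22, 28, 29, 30 and 31 and at 4834 to 5588 CPM in wild type, a log2 fold change of -0.33 (edgeR adjusted p = 0.0158). Ampd1, muscle AMP deaminase, fell by 0.28. None of 13 slow-fibre genes was called. Among 23 genes of calcium handling and excitation, 1 rose and 1 fell at 2 weeks alone, and the rise was Jsrp1, a junctional reticulum protein (0.28). Atp1b4, a muscle-specific relative of sodium pump subunits, was named after its values were seen. It went from 164 ± 16.7 to 222 ± 22.5 CPM (log2 fold change 0.53, edgeR adjusted p = 0.000537).

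In the list for the neuromuscular junction and denervation, Chrna9 and Chrne rose among 20 members at 2 weeks alone, where 0.453% of all genes rose. Chrne, the adult epsilon subunit of the muscle acetylcholine receptor, went from 15.7 ± 1.71 to 19.3 ± 1.52 CPM, with overlap between the groups (log2 fold change 0.38, edgeR adjusted p = 0.0331). Averaged over its members, the list stood at 4.25, 4.21, 4.18, 4.24 and 4.30 log2 CPM in knockout animals 22, 28, 29, 30 and 31, and between 4.10 and 4.16 in wild type. Of 37 lists this was the only one whose mean was higher in every knockout than in every wild-type library. Without Chrna9 the mean of the other 19 members overlapped, at 4.30 to 4.42 log2 CPM in knockout and 4.29 to 4.35 in wild type. The summed levels overlapped as well, at 496.7 to 537.5 and 503.9 to 523.8 CPM. The list's median log2 fold change was 0.04 in the all-age fit, beside -0.02 for all genes.

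The only list whose mean was lower in every knockout library was that of lipid and sterol synthesis. It was at 4.28, 4.24, 4.00, 4.09 and 4.11 log2 CPM in knockout animals 22, 28, 29, 30 and 31, and between 4.29 and 4.47 in wild type, so the gap between the groups was narrow. The summed levels overlapped, with 1399 CPM in knockout animal 22 and 1369 CPM in wild-type animal 32. Of 31 members, 27 had a negative log2 fold change in the all-age fit, with a median of -0.32, and none was called. At 2 weeks alone the median was -0.21, and Hmgcs1 and Msmo1, enzymes of sterol synthesis, fell, beside 0.726% of all genes. Hmgcs1, HMG-CoA synthase, went from 85.9 ± 7.99 to 62.7 ± 8.16 CPM (log2 fold change -0.45, edgeR adjusted p = 0.0377). Msmo1, a methylsterol oxidase, fell by 0.47. Schwann cells also make much lipid, and their markers were lower in the same animals. The 14 tested Schwann cell and nerve markers summed to 548 to 1168 CPM in knockout and 1121 to 1515 CPM in wild type, and the part of this in the lipid result was not tested. Knockout animal 29 was lowest in both lists.

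Transcripts of connective tissue and proliferating cells were also mostly below wild type, without called members in the all-age fit. All 32 extracellular matrix genes had a negative log2 fold change there (median -0.25), as did all 30 cell cycle genes (-0.44), all 14 Schwann cell and nerve markers (-0.44), 13 of 14 fibroblast markers (-0.16) and 11 of 12 tendon markers (-0.28). At 2 weeks alone the medians were -0.20, -0.20, -0.45, -0.15 and -0.26 in the same order. At 2 weeks alone Cdh19, a Schwann cell cadherin, and Cd55, listed as a fibroblast marker, fell by 0.51 and 0.44, and no gene of the matrix, cell cycle or tendon lists was called. The summed matrix level ran from 22940 to 33916 CPM in knockout and from 31295 to 37539 CPM in wild type. The mean levels of the matrix, fibroblast, tendon and Schwann lists were all lowest in knockout animal 29. With libraries scaled to their totals alone these medians stayed below 0 but were nearer to it, at -0.09 for the matrix and -0.00 for the fibroblast list. Without the lymphocyte-rich libraries the fibroblast median was -0.05 and the cell cycle median -0.83. Cell cycle means overlapped between the groups, at 2.70 to 3.32 and 2.91 to 3.46 log2 CPM.

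Lymphocyte markers were high in 3 of 5 knockout and 1 of 6 wild-type libraries, and their part in the other results was not tested beyond the fits without these libraries. Their summed level over 25 genes was 200.3 CPM in wild-type animal 25, and 194.2, 164.6 and 126.4 CPM in knockout animals 28, 29 and 31. In the other 7 libraries it lay between 41.5 and 56.8 CPM. Cd8a, a T cell marker, was at 1.27 to 1.61 CPM in those 4 libraries and at 0 to 0.0756 CPM in the others, with 0 in wild-type animals 24, 26 and 32. The list's median log2 fold change was 0.90 in the all-age fit, and no member was called. Macrophage markers had a median of -0.20 in the all-age fit and -0.03 at 2 weeks alone, and of 21 only Lgals3, galectin 3, was called at 2 weeks alone, from 3.47 ± 0.277 to 5.19 ± 0.937 CPM. Without the 4 lymphocyte-rich libraries the all-age fit called 3 genes. In the all-age fit with every library, endothelial, smooth muscle and satellite cell lists had medians between -0.01 and 0.01 and no called member. At 2 weeks alone their medians were -0.06, -0.06 and 0.02 in the same order, again with no called member.

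**Figure D4:**
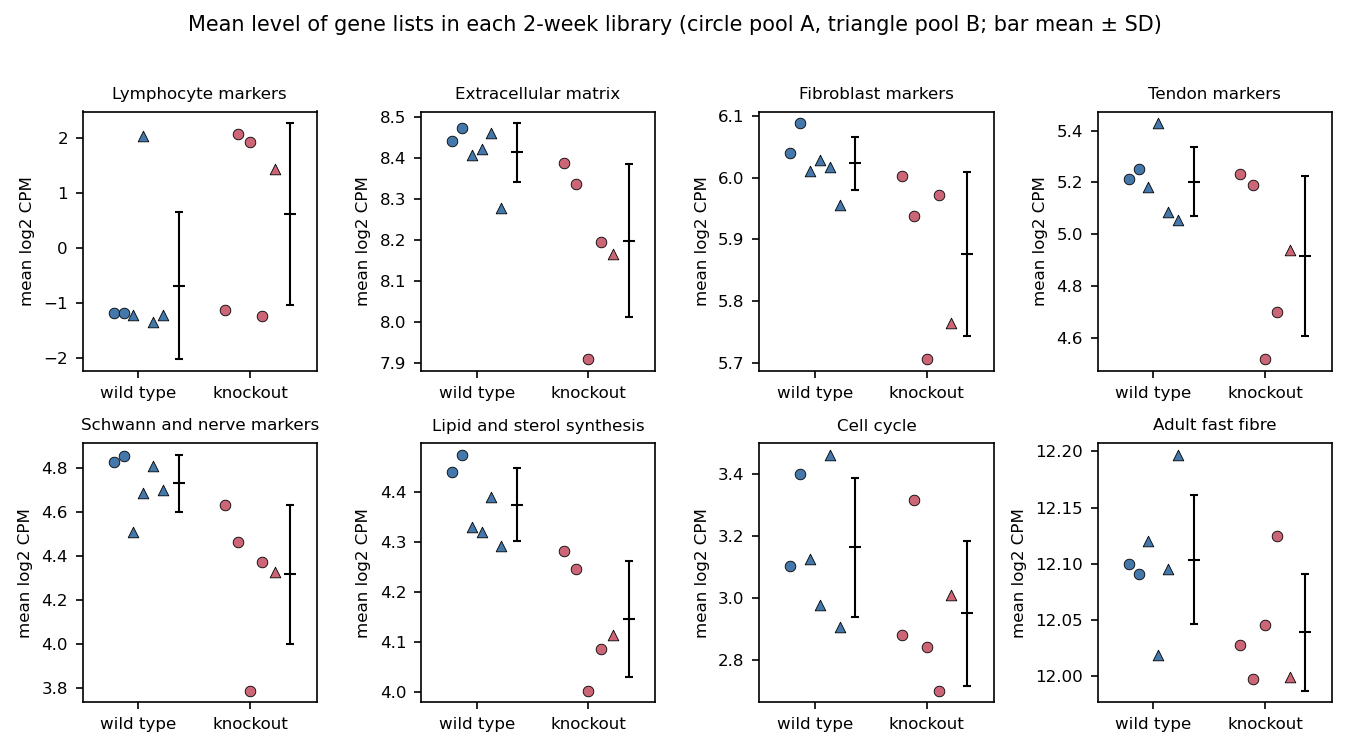
Mean log2 CPM of 8 gene lists in each 2-week library, wild type (blue) and knockout (red), with circles for pool A, triangles for pool B, and bars for the mean ± SD. The axes do not start at 0. Lymphocyte markers were high in 1 wild-type and 3 knockout animals, and lipid and sterol synthesis was the panel without overlap.

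Most genes called at 2 weeks had the same direction in other animals at 4 weeks. Fits of single ages share no library, so the values at 4 weeks come from 11 animals that the calls at 2 weeks did not use. The 4-week fit called 1.46% of its genes. Without Nampt, 168 of the genes called at 2 weeks were tested there, and 154 of them, 91.7%, had the same sign. Of the rises, 58 of 63 were above 0, against 51.8% of all genes, and 13 were called again, against 0.708% of all genes. Of the falls, 96 of 105 were below 0, against 48.2% of all genes, and 30 were called again, against 0.723%. None was called in the opposite direction. Without the libraries rich in ribosomal RNA, which were all at later ages, 157 of 168 had the same sign, 93.5%, and 17 in place of 43 were called again (6 rises and 11 falls). Genes called with and without the pool term at 2 weeks gave 149 of 162. Tspan8 (-2.27, edgeR adjusted p = 0.0011), Cd28 (-1.98), Rnf128 (-1.48), Cd55 (-1.39), Bche (-1.22), Hook1 (-1.12) and Acsl4 (-0.56) fell again at 4 weeks. Chrna9 (2.14, edgeR adjusted p = 0.0068), Ryr3 (1.15), Atp1b4 (0.98), Ppif (0.90) and Mpp3 (0.73) rose again. Without the libraries rich in ribosomal RNA these 5 rises kept their sign and lost the call (edgeR adjusted p = 0.0975, 0.0682, 0.202, 0.094 and 0.0763), and the 7 falls kept it. In the opposite look-up, 90 of 94 genes that rose and 91 of 95 that fell in the 4-week libraries lay on the same side of 0 at 2 weeks, against 49% and 51% of all genes. Their medians at 2 weeks were 0.22 and -0.32.

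At 8 weeks most falls kept their sign, and the share of rises above 0 was closer to that of all genes. The 8-week libraries fitted alone gave calls for 45.7% of genes. Among the 8-week wild-type animals, animal 36 had Myh4 at 6596 CPM, and the others had 49569 to 63935 CPM. Of 104 falls tested there, 91 were below 0, against 50.7% of all genes, and 64 were called as falls, against 23.5%. The 5 called in the opposite direction included Ddc (2.39) and Plekhh1 (2.32). Of 62 rises, 36 (58.1%) were above 0, against 49.3% of all genes. Of the same 62, 20 were called as rises, a larger share than the 21.8% of all genes. As falls 8 of the 62 were called, a smaller share than the 23.5% of all genes. Among those called as rises were Chrna9 (2.61), Ryr3 (1.58) and Atp1b4 (2.78). Dusp26 (-2.34), Ppp1r1a (-2.82), Kcng4 (-2.20) and Mettl21c (-2.37) were among those called as falls. Without the libraries rich in ribosomal RNA, 38 of 104 falls were called as falls, against 13.1% of all genes. Of 64 rises, 15 were then called as rises, a larger share than the 13.6% of all genes, and Kcng4 lost its call (edgeR adjusted p = 0.0521). The libraries left out at 8 weeks were those of wild-type animals 34 and 35, the wild-type animals of pool A. At 6 weeks, with 2 animals a group, 136 of 165 genes had the same sign. There 46 of 62 rises were above 0, against 51.4% of all genes, and 90 of 103 falls were below 0, against 48.6%. All 4 ages had wild-type and knockout animals of both pools.

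**Figure D5:**
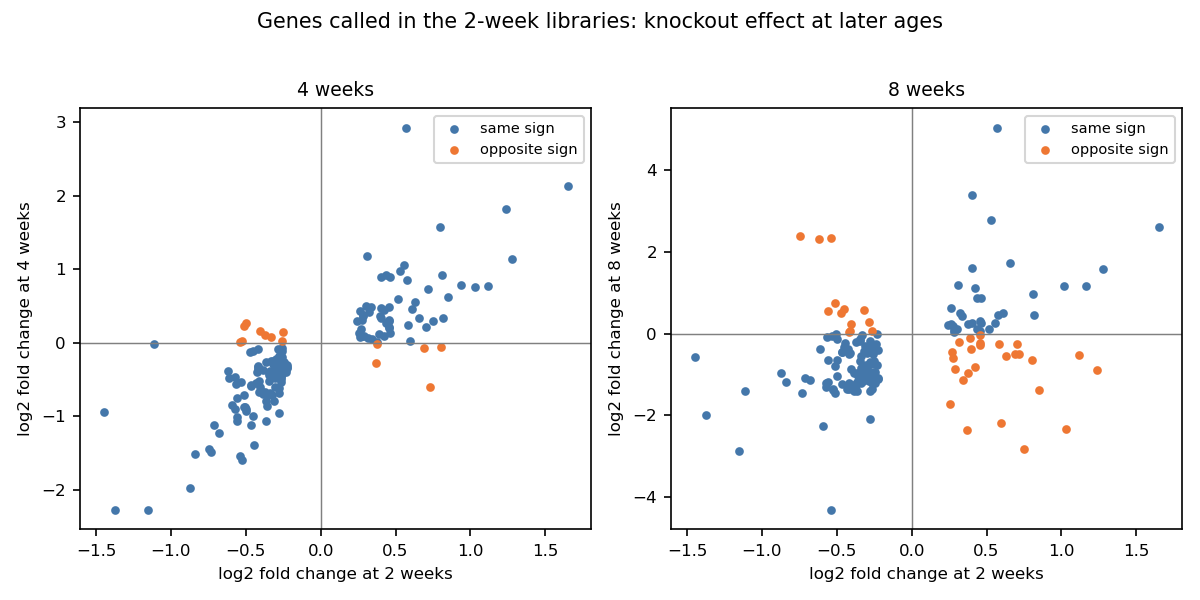
Log2 fold change at 4 weeks (left) and 8 weeks (right) against that at 2 weeks for genes called in the 2-week fit, each age fitted on its own libraries. Each point is a gene, blue for the same sign and orange for the opposite sign. Nampt is left out, and Gm10800 and Gm10801 lie beyond the horizontal range drawn. At 4 weeks 154 of 168 genes had the same sign, and at 8 weeks 127 of 166.

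The difference between ages was tested in the all-age fit, in which the 2-week values take part. No gene differed between 4 and 2 weeks (0%, with 1171 genes at an unadjusted p under 0.05, and 4 calls by DESeq2). Between 8 and 2 weeks, 6089 genes differed, 36.4%, of which 3151 (18.8%) were higher and 2938 (17.6%) lower at 8 weeks relative to 2 weeks. With libraries scaled to their totals alone the split was 6317 and 297, so the direction of this set depended on the scaling. Nampt itself fell further, by 1.09 log2 units more at 8 than at 2 weeks (SE 0.15, edgeR adjusted p = 1.47e-06). The largest positive differences were in Mymk, the fusion protein myomaker (6.56), Myh8 (5.41), Shisal1 (5.28), Agtr2 (5.23), Mt2, a metallothionein (5.04), and Ms4a7 (4.94). The largest negative ones were in Rp1 (-5.36), Cdh4 (-4.05), Myh13 (-3.96), Amd1 (-3.94), Mss51 (-3.83) and Barx2 (-3.70). None of these 12 was called at 2 weeks in either fit.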

How the data were processed

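Gene expression was measured by RNA sequencing in gastrocnemius muscle. Per the labels' protocols, RNA was isolated with a Qiagen RNeasy mini kit and made into Illumina stranded total RNA libraries depleted of ribosomal RNA, read as 38-bp pairs. The values are raw read counts per gene, as deposited by the authors. Per the submitters' processing notes, STAR 2.5.2b, featureCounts 1.5.2, edgeR 3.22.0 and mm10 were used. The role of each, the annotation and the strand setting are not given in the sources used here. Symbols and positions come from GENCODE vM21 (GRCm38), which matched 50376 of 50686 identifiers.

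Groups were taken from the genotype and age labels. Counts of all 37 libraries were fitted with edgeR 4.0.16 (R 4.3.3) by its quasi-likelihood test, with TMM factors (1.16 to 1.30 at 2 weeks), a filter at a minimum count of 10 and a total of 15, and terms for the 8 groups and for pool. Benjamini-Hochberg adjusted p-values below 0.05 were called. This is the all-age fit. The 2-week fit used the 11 libraries alone. SEs were derived from the F statistic. CPM used the TMM factors, and list means used log2 CPM with a prior count of 2. Intervals are exact and cover counting error only. The scripts were tested on simulated data. DESeq2 1.42.0, other scalings, no filter, single pools, a sex term and leaving out each library were alternatives. No paired analysis was possible because the animal numbers are not shared between groups.

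Named genes were Nampt and the NAD synthesis list, every call of the all-age fit, the 12 largest rises and falls of the 2-week fit (genes averaging 1 log2 CPM or more whose direction was shared by pools A and B), the 6 largest differences between ages each way, and up to 4 members of each list by p. Predicted, mitochondrial and sex-linked marker genes were left out of the rankings. Other genes are named after their values were seen. The members and lists were chosen with earlier results of these data known. A few genes are not reported here.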

Additional observations from a re-analysis of the deposited data

Results flagged for a closer look

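In a group of 5 or 6 libraries, a library was taken to stand apart when its gap to the nearest other exceeded Dixon's critical value. 294 groups were examined and 23 held such a library, where chance flags about 1 in 20. In knockout animal 28 this was so for Chrna9 (5.88 CPM). In knockout animal 30 this was so for Nmrk2 (119 CPM), Bche (6.39 CPM), Myh13 (5.94 CPM) and Prkag3 (64.4 CPM). In knockout animal 31 this was so for Kl (5.79 CPM), Ddc (21.4 CPM), Myh8 (592 CPM) and Ngp (1.47 CPM). In wild-type animal 23 this was so for Cask (33.2 CPM). In wild-type animal 25 this was so for Haao (0.44 CPM), Kmo (1.497 CPM) and Cd8a (1.59 CPM). In wild-type animal 26 this was so for Gm21738 (0.17 CPM), Ppp1r1a (14.4 CPM) and Me1 (23.2 CPM). In wild-type animal 32 this was so for Jsrp1 (247 CPM). Among list means in log2 CPM it was so for NAD synthesis in wild-type animal 25 (2.08), oxidative stress and metallothioneins in knockout animal 30 (4.94), growth factors and muscle growth signalling in wild-type animal 23 (6.25), extracellular matrix in wild-type animal 32 (8.28), lymphocyte markers in wild-type animal 25 (2.05) and granulocyte and mast cell markers in wild-type animal 25 (0.80).

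For 52 of 110 named genes the effect of the knockout at 8 weeks differed from that at 2 weeks in the all-age fit (edgeR, adjusted over all genes tested). Of all genes tested, 36.4% did so. The 6 largest differences each way were named from this same test, so their passing was fixed in advance. Each value is the log2 fold change at 8 weeks minus that at 2 weeks. The value was positive, in falling order, for Mymk (6.56), Myh8 (5.41), Shisal1 (5.28), Agtr2 (5.23), Mt2 (5.04), Ms4a7 (4.94), Lgals3 (4.68), Ddc (3.23) and Plekhh1 (2.81). It was also positive for Prr32 (2.42), Atp1b4 (2.25), Lox (2.18), Thbs4 (1.73), Mcm4 (1.495), Msmo1 (1.12), Mcm2 (1.05), Sesn2 (1.05) and Afmid (0.93). Smaller positive values were those of Lamp2 (0.56) and Acsl4 (0.51). The value was negative, from the farthest below 0, for Rp1 (-5.36), Cdh4 (-4.05), Myh13 (-3.96), Amd1 (-3.94), Mss51 (-3.83), Barx2 (-3.70), Ppp1r1a (-3.64), Dusp26 (-3.38), Kl (-3.01) and Kcng4 (-3.00). Next below 0 were Mettl21c (-2.77), Crip3 (-2.58), Cacna2d4 (-2.40), Ampd1 (-1.71), Krt222 (-1.70), Tspan8 (-1.59), Gabrr2 (-1.56), Pitpnm3 (-1.51) and Mpp3 (-1.30). They were followed by Cox8b (-1.20), Slc27a1 (-1.15), Plbd1 (-1.14), Nampt (-1.09), Mybpc1 (-1.08), Cdh19 (-1.07), Oxct1 (-0.98), Kcnq5 (-0.92) and Me1 (-0.89). The negative values nearest to 0 were those of Jsrp1 (-0.87), Klhl31 (-0.85), Rnf128 (-0.72) and Nmnat1 (-0.44).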

How the results depend on the processing

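The all-age fit called 10 genes at 2 weeks, and 20 by DESeq2, 1 in pool A alone, 2 in pool B alone, 3 without the lymphocyte-rich libraries and 5 to 10 with 1 library left out (5 without wild-type animal 21). On the 2-week libraries the count was 177 with pool as covariate, 238 with pool and sex, 505 without pool, 547 without a filter, 287 by DESeq2, 72 without the lymphocyte-rich libraries and 49 to 183 with 1 library left out. The difference between 4 and 2 weeks had 42 calls in pool A and 4 by DESeq2, and that between 8 and 2 weeks had 2121 in pool A and 1869 in pool B. Nampt kept its direction throughout but lost the call with totals alone (-0.79), in pool A (-0.73) and in pool B (-1.09). With 1 library left out it ran from -1.04 to -0.92. The fits of single pools hold fewer samples, and for the other changes the cause was not tested.

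Values that changed sign belong to genes not called at 2 weeks, all near 0 except Mss51 (-1.47 without the lymphocyte-rich libraries). With totals alone they were Nmnat3 (0.15), Mymk (0.035), Cdh4 (0.0205), Amd1 (0.15) and Barx2 (0.12). Without a filter they were Nmnat3 (0.0060) and Amd1 (0.0017). In pool A they were Nmnat3 (0.18), Nmrk1 (-0.022), Qprt at 2 weeks (-0.0011), Rp1 (-0.29), Amd1 (0.056) and Mss51 (-0.023), and in pool B Nmnat1 (-0.068), Mymk (0.17), Rp1 (-0.24) and Cdh4 (0.0198). Without pool they were Nmrk1 (-0.034) and Rp1 (-0.17). On the 2-week libraries they were Nmnat3 (0.036) and Rp1 (-0.26) with pool, Nmnat3 (0.018), Nmrk1 (-0.014) and Rp1 (-0.16) without it, and Nmnat3 (0.032) and Rp1 (-0.24) with sex. Without the lymphocyte-rich libraries they were Nmnat3 (0.069), Nmrk1 (-0.063), Qprt (-0.0135), Agtr2 (0.0024), Amd1 (0.11) and Barx2 (0.062), and without the libraries rich in ribosomal RNA Qprt (-0.0203) and Rp1 (-0.091). With 1 library left out the ranges were -0.072 to 0.048 for Nmnat3, -0.046 to 0.071 for Nmrk1, -0.041 to 0.062 for Qprt, -0.00078 to 0.17 for Afmid, -0.0896 to 0.043 for Mymk, -0.093 to 0.24 for Rp1, -0.087 to 0.12 for Amd1, -0.17 to 0.94 for Mss51 and -0.11 to 0.092 for Barx2. No paired analysis was possible because the animal numbers are not shared between groups. Genes with few counts, such as Vtcn1 and Gm5083, are limited by depth.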

Other observations

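Falls of the 2-week fit lay on the X chromosome more often than genes in general, a count made after the values were seen and not tested. Of 109 falls, 14 were X-linked (12.8%), against 3.27% of the genes tested. They included Acsl4, Rps6ka6, Rnf128, Prr32, Maoa, Phka1, Lamp2 and Cask. The X-linked rises were Atp1b4 and the non-coding RNA Firre. Over all 491 X-linked genes tested, called or not, 334 had a log2 fold change below 0 (68%), against 50.5% of autosomal genes. With a sex term, from the counts of Xist and Ddx3y, the shares were 67.4% and 50.4%, and 16 of 149 falls were X-linked. With libraries scaled to their totals alone they were 53.2% and 36.4%. Without wild-type animal 21 they were 61.6% and 50.8%, with 3 of 27 falls on X. In the 4-week libraries they were 54.7% and 48%, with 9 of 97 falls on X. The groups held 2 females of 6 and 2 of 5 by these counts, and the part of sex in this difference beyond the fitted term was not tested.

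Within 10 Mb of the start of Nampt, 64 genes were tested, and 2 of them, the targeted gene Nampt and Sypl, were called in the 2-week fit, which called 1.18% of all genes.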
